A study of Mus musculus with 10 samples.

Results

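The simple epithelial keratins are the genes *Krt7*, *Krt8*, *Krt18* and *Krt19*. They were chosen by name, with earlier results of these data known. All 4 were found among the 27998 genes counted in E14Tg2a cells, beside 50 other keratin genes. They were also among the 32285 genes counted in R1 cells, beside 49 other keratin genes. In the data they were far higher in 1 group of E14Tg2a embryoid body (EB) cells than in the other cells of the same libraries, were 10.8-fold lower in the listed primordial germ cell-like cells (PGCLC) than in the other EB cells, and came apart as a pair in the mesoderm-like cells of d4 EB, which kept *Krt8* but held little *Krt18*.

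Keratins are the intermediate filament proteins of epithelial cells, and a filament needs a type II chain paired with a type I chain. *Krt8* and *Krt7* encode type II chains, *Krt18* and *Krt19* encode type I chains, and *Krt8* with *Krt18* is the pair shared by simple epithelia. These are the first keratins of the mouse embryo, where they appear in the trophectoderm and remain in extraembryonic ectoderm, endoderm and amnion. Keratin filaments are anchored at desmosomes through desmoplakin and plakin cytolinkers, while mesenchymal cells build their filaments from vimentin.

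Every library came from mouse embryonic stem cells (ESC) or their derivatives, each condition with 1 library and no replicate. In the wild-type line E14Tg2a these were ESC in 2i plus LIF (2i ESC), ESC in serum plus LIF (S+L ESC), epiblast-like cells after 1, 2 and 3 days with Activin A and bFGF (d1, d2 and d3 EpiLC), epiblast stem cells (EpiSC), and EB after 2 and 4 days (d2 and d4 EB), which were grown from d2 EpiLC with BMP4, SCF, LIF and EGF. In the line R1, d4 EB of wild-type cells (R1 WT) were compared with d4 EB of Mll3/4 dCD cells, 1 ESC line derived from R1 in which MLL3 and MLL4 carry substitutions that remove their methyltransferase activity. Within the E14Tg2a EB, 91 cells of d2 and 44 cells of d4 are on the study's list of PGCLC, a list built from clusters and core PGC genes of these same cells, so that levels in listed against other cells are a description. Because stage, line and genotype are each 1 library, none of them can be told apart from the library, and no test between conditions was made.

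The libraries held 227 to 1699 cells, with median depths from 11751 to 36750 unique molecular identifiers (UMIs) per cell. Levels are UMIs of a gene per 1000000 UMIs of the group (CPM) with exact 95% Poisson intervals, ratios are ratios of CPM with exact 95% conditional intervals, and shares of cells have exact 95% Clopper-Pearson intervals. All of them cover counting error only. A UMI counts 1 molecule tagged near its 3′ end, so gene length does not enter a level, although capture can still differ between genes. At most 2 cell barcodes were shared by any pair of E14Tg2a libraries and 0 by the R1 libraries. All 6 PGC markers were at least 2-fold higher in the listed PGCLC than in the other cells, by 2.42- to 332-fold in d4 EB. *Kmt2c* and *Kmt2d*, which encode MLL3 and MLL4, were at 53.8 and 29.1 CPM in dCD and at 47.5 and 29.4 CPM in R1 WT, and transcript counts do not check substitutions in a catalytic domain.

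On GRCm38, *Krt7* (ENSMUSG00000023039) lies on chromosome 15 from 101411043 to 101430313 on the forward strand. *Krt8* (ENSMUSG00000049382) lies on the same chromosome from 101996698 to 102004482 on the reverse strand, and *Krt18* (ENSMUSG00000023043) from 102028180 to 102032027 on the forward strand. The 5′ ends of *Krt8* and *Krt18* thus face each other across 23697 bases, although they belong to the different keratin types. *Krt19* (ENSMUSG00000020911) lies on chromosome 11 from 100140810 to 100148665 on the reverse strand, among the type I genes. All 4 members were higher in d2 EB than in the d2 EpiLC before them, and the promoters of the 3 members matched in RefSeq (GRCm38.p6, with no match for *Krt19*), 250 bases before and 50 after the start, are therefore shown. They are *Krt7* at chr15:101412153-101412452 on the forward strand, *Krt8* at chr15:102004293-102004592 on the reverse strand and *Krt18* at chr15:102027966-102028265 on the forward strand, each 5′ to 3′, with capitals for the motifs named after them. The RefSeq starts of these windows lie inside the gene spans given above. The *Krt7* window lies wholly within the *Krt7* span, so none of its bases are upstream of that span.
Krt7: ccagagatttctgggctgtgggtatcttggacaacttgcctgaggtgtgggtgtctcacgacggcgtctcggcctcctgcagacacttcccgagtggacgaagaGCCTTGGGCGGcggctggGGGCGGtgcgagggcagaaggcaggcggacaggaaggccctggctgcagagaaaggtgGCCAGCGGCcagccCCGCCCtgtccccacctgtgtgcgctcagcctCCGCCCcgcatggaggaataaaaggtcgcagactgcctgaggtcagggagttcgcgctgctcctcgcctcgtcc
Krt8: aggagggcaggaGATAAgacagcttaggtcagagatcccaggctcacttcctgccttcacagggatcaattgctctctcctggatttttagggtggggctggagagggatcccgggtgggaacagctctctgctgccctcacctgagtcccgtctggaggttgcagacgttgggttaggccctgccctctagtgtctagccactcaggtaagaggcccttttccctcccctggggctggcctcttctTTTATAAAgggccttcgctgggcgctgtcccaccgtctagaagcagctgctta
Krt18: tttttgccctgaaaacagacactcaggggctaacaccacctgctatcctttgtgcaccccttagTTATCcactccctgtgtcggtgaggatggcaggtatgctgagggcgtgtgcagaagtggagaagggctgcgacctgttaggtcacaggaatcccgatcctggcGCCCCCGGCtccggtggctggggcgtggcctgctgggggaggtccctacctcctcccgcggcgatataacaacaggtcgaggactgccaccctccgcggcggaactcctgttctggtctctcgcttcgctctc
The motifs were searched on both strands. The AP-2 motif, GCCNNNGGC, stood in the *Krt7* and the *Krt18* window and in 16.6% of all 32851 promoter windows, and in *Krt7* an AP-2 match overlapped a GC box. The GATA motif, GATAA, stood in *Krt8* and *Krt18* and in 25.4% of all windows. The GC box, GGGCGG, stood in the *Krt7* window alone of the 3, and in 35.7% of all windows. The TATA box, TATAAA, stood across the RefSeq start of *Krt8*, where the matches on both strands overlap, and in 13.6% of all windows. The TEAD motif, GGAATG, was in none of the 3 and in 14.7% of all windows. The AP-1 motif, TGANTCA, was in none of the 3 either and in 7.81% of all windows. The windows were 66.3% (*Krt7*), 58.0% (*Krt8*) and 61.3% (*Krt18*) G or C, against a median of 52.7%.

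The first question was where along the differentiation the keratins are transcribed. *Krt8*, the type II chain of the simple epithelial pair, was at 13.5 CPM (11.2 to 16.1) in 2i ESC, 3.96 CPM (2.83 to 5.39) in S+L ESC, 3.82 CPM (2.75 to 5.16) in d1 EpiLC, 15.1 CPM (12.9 to 17.5) in d2 EpiLC, 65.8 CPM (61.6 to 70.1) in d3 EpiLC, 127.9 CPM (121.8 to 134.3) in EpiSC, 550.1 CPM (538.1 to 562.2) in d2 EB and 586.6 CPM (571.3 to 602.1) in d4 EB. It was thus lowest in S+L ESC and d1 EpiLC, which do not differ beyond counting error, and highest in the EB libraries. Between d2 EpiLC and the d2 EB grown from them, *Krt8* was 36.5-fold higher (31.3 to 42.8).

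*Krt18*, its type I partner, was higher from d1 EpiLC on. It was at 4.00 CPM (2.78 to 5.56) in 2i ESC, 8.22 CPM (6.54 to 10.2) in S+L ESC, 13.7 CPM (11.6 to 16.1) in d1 EpiLC, 69.1 CPM (64.3 to 74.2) in d2 EpiLC, 182.4 CPM (175.4 to 189.5) in d3 EpiLC, 112.9 CPM (107.2 to 118.9) in EpiSC, 483.9 CPM (472.7 to 495.3) in d2 EB and 491.3 CPM (477.4 to 505.5) in d4 EB. Unlike *Krt8*, which was 3.53-fold lower (2.46 to 5.15) in d1 EpiLC than in 2i ESC, it was 3.44-fold higher (2.37 to 5.11) there, and it was higher in each EpiLC library than in the one a day before it. The d2 and d4 EB levels of *Krt18* do not differ beyond counting error.

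*Krt19*, the small type I keratin that lacks most of the tail domain, stayed below 20 CPM outside the EB. It was at 1.37 CPM in 2i ESC, 5.74 CPM in S+L ESC, 1.55 CPM in d1 EpiLC, 3.76 CPM in d2 EpiLC, 18.04 CPM in d3 EpiLC and 9.40 CPM in EpiSC, and then at 41.0 CPM (37.7 to 44.4) in d2 EB and 130.8 CPM (123.7 to 138.2) in d4 EB. *Krt7*, the type II keratin found in glandular and ductal epithelia and in trophoblast, was at 2.06 to 4.26 CPM in the ESC and EpiLC libraries, on 18 to 43 UMIs each, and at 8.74 CPM (7.29 to 10.4) in d2 EB. Its highest levels were 30.8 CPM (27.8 to 34.0) in EpiSC and 27.6 CPM (24.4 to 31.1) in d4 EB, whose intervals overlap. *Krt7* was therefore the 1 member that was as high in EpiSC as in any EB library, 15.0-fold higher (10.2 to 22.6) than in d3 EpiLC. It was the 1 member at least 2-fold higher in EpiSC than in d3 EpiLC, where 7.95% of 13472 genes were at least 2-fold higher and 6.37% lower.

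In R1 cells, counted with another chemistry and given side by side only, d4 EB of WT held *Krt8* at 766.2 CPM, *Krt18* at 417.2 CPM, *Krt19* at 127.3 CPM and *Krt7* at 10.0 CPM. The order of the 4 genes was the same as in d4 EB of E14Tg2a.

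**Figure D1:**
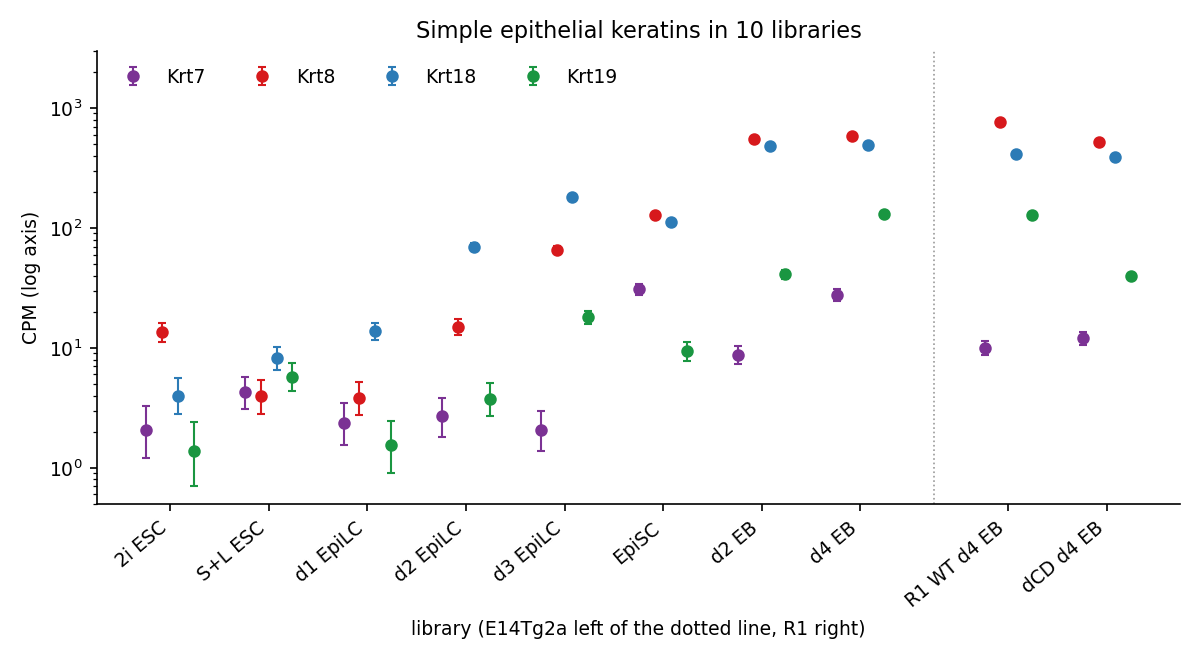
Levels of the 4 keratins in each of the 10 libraries, in CPM on a log axis, with 1 point per gene and library and bars for exact 95% Poisson intervals, which are often smaller than the points. *Krt8* and *Krt18* lie above 480 CPM in both E14Tg2a EB libraries and at or below 182.4 CPM in the 6 libraries before them.

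As a result of these unlike courses, the balance of the transcripts shifted. The ratio of *Krt8* to *Krt18* UMIs was 3.37 (2.29 to 5.07) in 2i ESC, 0.278 (0.193 to 0.394) in d1 EpiLC, 0.218 (0.183 to 0.258) in d2 EpiLC and 0.361 (0.334 to 0.389) in d3 EpiLC. It came to 1.13 (1.05 to 1.22) in EpiSC, 1.14 (1.10 to 1.17) in d2 EB and 1.19 (1.15 to 1.24) in d4 EB. The EpiLC thus held more *Krt18* than *Krt8* UMIs, and the EB libraries held similar numbers of both. Capture can differ between genes, so a shift of this ratio can be read, but not an excess of transcripts in the cell. Over all 4 members, type II UMIs per type I UMI were 0.244 (0.207 to 0.285) in d2 EpiLC and 1.06 (1.03 to 1.10) in d2 EB.

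The spread over cells also differed. In d3 EpiLC, *Krt18* had a UMI in 96.7% of cells and the 10% of cells with the most *Krt18* held 26.6% of its UMIs, so it was low and even. In EpiSC it had a UMI in 50.7% of cells and the same share of cells held 70.4% of the UMIs. In d4 EB it had a UMI in 44.0% of cells and the same share held 94.7%, and the 5 cells with the most *Krt18* UMIs alone held 41.8%. In EpiSC, 73 of 373 cells (19.6%) had at least 10 keratin UMIs in sum, while 32.4% of cells had none.

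All 4 members were at least 2-fold higher in d2 EB, where 13.1% of 13744 genes were, counting each gene with at least 10 UMIs and adding 1 CPM to both levels. Of 11 desmosome and cytolinker genes that could be compared, 5 were at least 2-fold higher and 1 lower, with a median log2 ratio of 0.11 against 0.06 over all genes, of which 9.79% were at least 2-fold lower. *Dsp*, which encodes desmoplakin, went from 0.627 to 22.3 CPM, *Dsg2*, a desmosomal cadherin, from 5.74 to 18.5 CPM, and *Pkp2*, a plakophilin, was the 1 lower gene at 26.4 to 10.4 CPM. Of 16 epithelial adhesion and splicing genes, 0 were at least 2-fold higher and 9 were lower, with a median log2 ratio of -1.05, among them *Epcam* (293.5 to 95.6 CPM), the adherens junction cadherin *Cdh1* (102.6 to 33.2 CPM) and the splicing regulator *Esrp1* (35.5 to 9.90 CPM). All 8 mesenchymal genes were at least 2-fold higher, at a median log2 ratio of 2.81, with *Vim*, which encodes vimentin, at 44.9 CPM in d2 EpiLC and 346.2 CPM in d2 EB. Of 15 epithelial and trophectoderm transcription factors, 10 were higher and 1 lower, at a median log2 ratio of 1.56, and *Cdx2*, a trophectoderm and posterior homeobox factor, went from 0.0896 CPM, which is 1 UMI, to 233.6 CPM. In bulk sums of this kind, more cells of a type and more RNA per cell cannot be told apart.

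The next question was which EB cells hold the keratins. EB cells were clustered without any keratin gene, so that a keratin level in a cluster did not enter its definition. In d2 EB, cluster 3 (61 of 537 cells, extraembryonic ectoderm-like, led by *3830417A13Rik*, *Tinagl1*, *Igfbp2*, *Vgll3* and *Esx1*) held *Krt8* at 2078 CPM (2020 to 2137), *Krt18* at 2124 CPM (2065 to 2183), *Krt19* at 162.5 CPM (146.7 to 179.6) and *Krt7* at 49.8 CPM (41.2 to 59.6). Every cell of this cluster had both *Krt8* and *Krt18*, with medians of 67 and 73 UMIs per cell. Its 11.4% of cells carried 65.9% of all keratin UMIs of d2 EB and 92.2% of those of *Krt7*.

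Cluster 1 of d2 EB (378 cells, extraembryonic mesoderm-like, led by *Hoxc8*, *Pitx1*, *Hoxc9*, *Hoxa9* and *Hoxb6*) was at an intermediate level. It held *Krt8* at 315.9 CPM (304.6 to 327.6) in 94.2% of cells, *Krt18* at 198.9 CPM (189.9 to 208.2) in 77.8% of cells, *Krt19* at 20.6 CPM and *Krt7* at 0.646 CPM, which is 6 UMIs. In sum its keratins were 8.23-fold lower (7.96 to 8.52) than those of cluster 3. Cluster 2 (98 cells, PGC-like, 86 of them listed PGCLC, led by *Tdh*, *Dppa3*, *Nanog*, *1700097N02Rik* and *Cenpv*) held *Krt8* at 67.7 CPM and *Krt18* at 70.7 CPM. Its summed keratins were 29.9-fold lower (27.2 to 32.9) than those of cluster 3, so the 3 clusters formed 3 separate levels.

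In d4 EB the same order was found with wider gaps. Cluster 3 (37 of 368 cells, extraembryonic ectoderm-like, with *Rhox6*, *Rhox9*, *Krt7* itself, *Gm9112* and *Serpinb9e* in the lead) held *Krt8* at 2341 CPM (2270 to 2413), *Krt18* at 2495 CPM (2422 to 2569), *Krt19* at 604.6 CPM (568.9 to 641.8) and *Krt7* at 146.8 CPM (129.5 to 165.7). These cells, 10.1% of the library, carried 98.5% of the *Krt7* UMIs, 94.0% of *Krt18*, 85.6% of *Krt19* and 73.9% of *Krt8*. *Krt8* was thus the member with the largest share outside them. Cells of this cluster had a median of 39004 UMIs against 21658 in the whole library, and the part of their size in the share of UMIs was not tested, whereas CPM are already per UMI.

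Cluster 1 of d4 EB (253 cells, extraembryonic mesoderm-like, led by *Ptn*, *Pitx1*, *Col3a1*, *Gal* and *Igfbp7*) held *Krt8* at 263.5 CPM (249.9 to 277.7) in 96.0% of cells but *Krt18* at only 37.2 CPM (32.2 to 42.7) in 37.5% of cells. *Krt19* was at 30.8 CPM (26.3 to 35.9) there and *Krt7* at 0.376 CPM, which is 2 UMIs. The *Krt8* to *Krt18* ratio of these cells was 7.09 (6.10 to 8.26), against 1.59 (1.498 to 1.684) in the mesoderm-like cluster of d2 EB and 0.938 (0.899 to 0.979) in the ectoderm-like cluster of d4 EB. More *Krt8* than *Krt18* UMIs were therefore found in the mesoderm-like cells and not in the ectoderm-like cells of the same library.

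The endothelium-like cluster 4 of d4 EB (29 cells, led by *Cldn5*, *Ctla2a*, *Emcn*, *Sox18* and *Rasgrp3*) held *Krt8* at 34.4 CPM and *Krt18* at 35.2 CPM, and in both cases 1 cell gave most of the UMIs (23 of 45 and 32 of 46). *Krt7* had 0 UMIs there, which allows up to 2.29 CPM. Cluster 2 (49 cells, 44 of them listed PGCLC) had 4 haemoglobin genes at its head (*Hba-a1*, *Hbb-y*, *Hba-x* and *Hba-a2*) and then *Dppa5a*, and was left unnamed, because 6 of 6 blood and 6 of 6 PGC markers were at least 2-fold higher in it. It held *Krt8* at 19.3 CPM (12.2 to 28.9), *Krt18* at 31.8 CPM (22.5 to 43.7) and *Krt19* at 4.19 CPM (1.36 to 9.77).

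**Figure D2:**
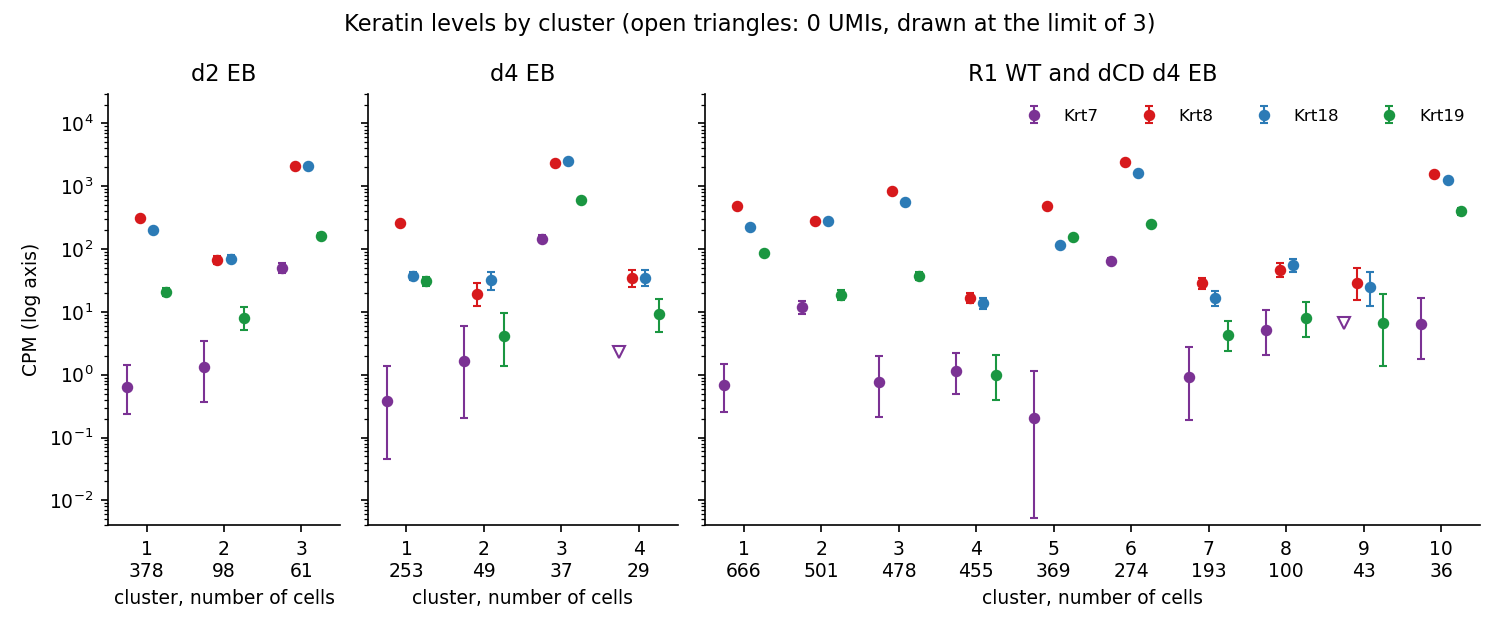
Keratin levels in CPM on a log axis for each cluster of d2 EB, of d4 EB and of the pooled R1 WT and dCD d4 EB, with cluster numbers and cells on the horizontal axis, exact 95% Poisson intervals as bars and open triangles for 0 UMIs. Cluster 3 of both E14Tg2a libraries and cluster 6 of the R1 libraries are highest in *Krt8*, above 2000 CPM, and *Krt18* lies far below *Krt8* in cluster 1 of d4 EB.

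As whole libraries, d4 EB and d2 EB differed in 2 members. *Krt7* was 3.16-fold higher (2.55 to 3.93) and *Krt19* 3.19-fold higher (2.89 to 3.53) in d4 EB, where 9.73% of 13813 genes were at least 2-fold higher and 3.54% lower. *Krt8* was at a ratio of 1.07 (1.03 to 1.10) and *Krt18* at 1.02 (0.978 to 1.05). Within cell groups the ratios were nearer to these in the ectoderm-like cells than in the mesoderm-like cells. From the ectoderm-like cells of d2 to those of d4, *Krt8* was at a ratio of 1.13 (1.08 to 1.17) and *Krt18* at 1.17 (1.13 to 1.22), while *Krt7* was 2.95-fold (2.36 to 3.69) and *Krt19* 3.72-fold (3.31 to 4.19) higher. From the mesoderm-like cells of d2 to those of d4, *Krt8* was at a ratio of 0.834 (0.782 to 0.889), *Krt19* at 1.497 (1.21 to 1.85), and *Krt18* was 5.35-fold lower (4.62 to 6.22). With 1 more cluster, d2 EB held 243 extraembryonic mesoderm-like cells and 158 primitive streak or nascent mesoderm-like cells. No cluster of d4 EB had the latter name, so the d2 mesoderm-like cells may be a mixed group. Without the ectoderm-like cluster in both libraries, the *Krt18* ratio of d4 to d2 EB was 0.215 (0.189 to 0.244) and the *Krt8* ratio 0.736 (0.692 to 0.784), so the like library levels of *Krt18* at both days rest on 37 cells of d4 EB.

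Among the lists, 2 of 11 desmosome and cytolinker genes were at least 2-fold higher in d4 than in d2 EB, the desmocollin *Dsc2* (4.98 to 11.8 CPM) and the plakin *Ppl* (0.546 to 2.81 CPM), and 0 were lower, with a median log2 ratio of 0.59 against 0.11 over all genes. Of 16 adhesion and splicing genes, 0 were higher and 1 was lower, the protease inhibitor *Spint1* (55.02 to 22.39 CPM), at a median log2 ratio of -0.21. Of 8 mesenchymal genes 4 were higher, at a median log2 ratio of 1.24, and *Twist1*, a mesenchymal helix-loop-helix factor, was the most abundant of these at 14.3 and 149.0 CPM. Of 15 transcription factors, *Grhl1* and *Ets2* were higher and *Cdx2* was lower, at 233.6 CPM in d2 EB and 25.7 CPM in d4 EB, and the median log2 ratio was 0.09.

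In the listed PGCLC all 4 keratins were low. Pooled over both EB libraries, *Krt8* was at 54.4 CPM (47.4 to 62.2) in the 135 listed cells and at 664.9 CPM (653.7 to 676.2) in the 770 other cells, *Krt18* at 62.4 CPM (54.9 to 70.7) and 570.3 CPM (560.0 to 580.8), *Krt19* at 5.77 CPM (3.66 to 8.65) and 90.5 CPM (86.4 to 94.7), and *Krt7* at 1.505 CPM (0.552 to 3.27), on 6 UMIs, and 19.1 CPM (17.2 to 21.1). All 4 were at least 2-fold lower, as were 14.6% of 13813 genes, and 6.41% were at least 2-fold higher. The sum of the 4 was 10.8-fold lower (9.91 to 11.9). The listed cells were deeper than the others, with medians of 26764 and 22980.5 UMIs per cell.

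The gap was wider in d4 EB than in d2 EB. In d2 EB the 91 listed cells held *Krt8* at 70.9 CPM (61.6 to 81.2) and the other 446 cells at 670.0 CPM (655.3 to 685.0), a 9.45-fold gap (8.23 to 10.9), and in d4 EB the 44 listed cells held 8.53 CPM (3.90 to 16.2), on 9 UMIs, against 657.9 CPM (640.8 to 675.3), a 77.1-fold gap (40.6 to 168.7). *Krt18* was 8.04-fold lower (7.02 to 9.26) in the listed cells of d2 and 16.5-fold lower (11.9 to 23.7) in those of d4. The listed cells of d4 held it at 33.2 CPM, beside 37.2 CPM in the mesoderm-like cells of that library. A low *Krt18* level was thus not particular to the listed cells at d4. *Krt8* did differ between these groups, at 8.53 CPM in the listed and 263.5 CPM in the mesoderm-like cells. It was also low in the endothelium-like cells of d4 EB, at 34.4 CPM on 45 UMIs. A low *Krt8* level was thus not particular to the listed cells either. *Krt19* was 7.66-fold lower (4.86 to 12.8) at d2 and 38.6-fold lower (15.0 to 141.9) at d4. *Krt7* was lower by 7.76-fold (2.96 to 28.9) at d2 and by 16.2-fold (4.45 to 134.7) at d4, on 4 and 2 UMIs in the listed cells. Of all genes compared, 10.3% were at least 2-fold lower in the listed cells of d2 EB and 31.3% in those of d4 EB, with 6.06% and 8.64% higher, so lower levels were more common at d4 over all genes as well.

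Between the listed cells of the 2 days, then, *Krt8* stood at 70.9 and 8.53 CPM while *Krt18* stood at 73.0 CPM (63.5 to 83.4) and 33.2 CPM (23.1 to 46.2). The *Krt8* to *Krt18* ratio was 0.972 (0.799 to 1.18) in the d2 list and 0.257 (0.109 to 0.546) in the d4 list, on 9 and 35 UMIs. In the listed cells of d4, *Krt18* UMIs thus outnumbered *Krt8* UMIs on these few counts, as they did in d2 EpiLC. In the mesoderm-like cells of the same library *Krt8* UMIs outnumbered *Krt18* UMIs. Cluster 2 of d4 EB, where 44 of 49 cells are listed, had a ratio of 0.605 (0.344 to 1.04), which includes 1, on 23 and 38 UMIs.

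**Figure D3:**
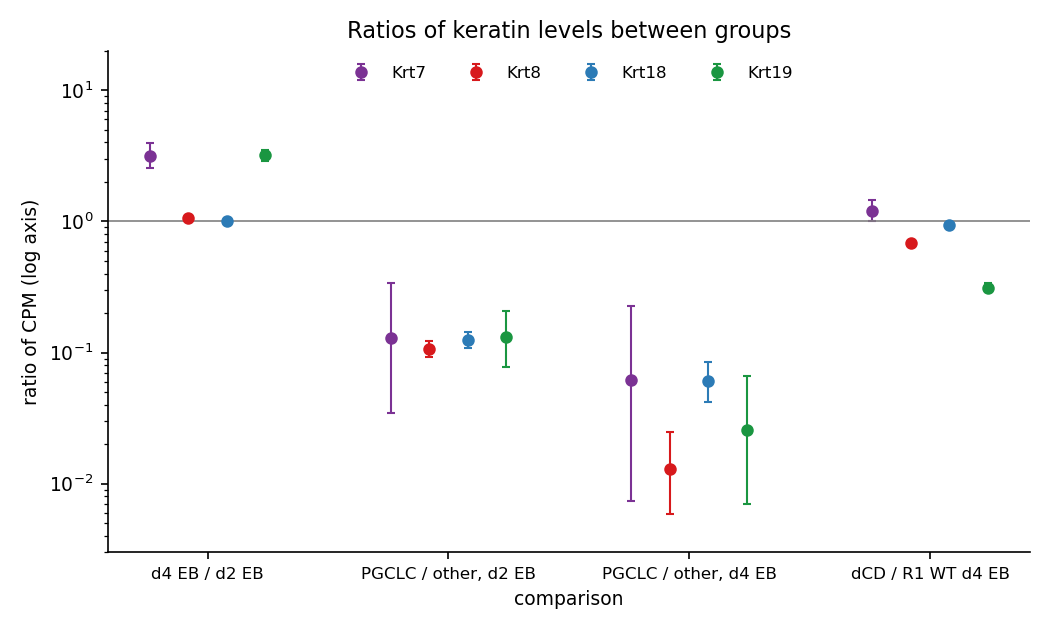
Ratios of CPM on a log axis for each keratin in 4 comparisons, d4 over d2 EB, listed PGCLC over other cells in d2 EB and in d4 EB, and dCD over R1 WT d4 EB, with exact 95% conditional intervals as bars and a line at 1. All 4 genes lie between 0.0130 and 0.131 in the PGCLC comparisons, and *Krt19* is the lowest point, at 0.312, in the comparison of dCD with WT.

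Of 11 desmosome and cytolinker genes, 2 were at least 2-fold lower, *Plec*, which encodes the cytolinker plectin (12.0 against 26.0 CPM), and *Dsc2* (1.76 against 8.83 CPM), and 0 were higher, with a median log2 ratio of -0.21, as for all genes (-0.21). Within d4 EB 4 of 10 were lower and 0 higher, where 31.3% of 12378 genes were lower and 8.64% higher. The median log2 ratio of the list there was -0.46, as for all genes (-0.46). Within d2 EB 1 of 9 was lower and 0 were higher, where 10.3% of 12539 genes were lower and 6.06% higher. *Jup*, which encodes plakoglobin, was at 47.9 and 46.2 CPM. Of 16 adhesion and splicing genes, 7 were at least 2-fold higher and 0 lower, at a median log2 ratio of 0.97, among them *Epcam* (168.8 against 58.7 CPM), *Cldn7* (72.2 against 34.2 CPM) and *Esrp1* (24.8 against 4.98 CPM). All 8 mesenchymal genes were lower, at a median log2 ratio of -2.58, with *Vim* at 76.7 against 458.2 CPM. Of 15 transcription factors 4 were higher, *Tfap2c*, *Klf5*, *Elf3* and *Grhl3*, and 3 were lower, *Gata2*, *Gata3* and *Ets2*. The median log2 ratio of these factors was 0.31, and *Tfap2c* is also a PGC marker.

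Counts in single cells showed how often the transcripts were found together. Cells were thinned to 15374 UMIs in E14Tg2a and to 6831 UMIs in R1, and 18 cells of d2 EB, 37 of d4 EB, 50 of R1 WT and 170 of dCD that were shallower were left out. In d2 EB, 59.0% of cells (54.6 to 63.2) had both *Krt8* and *Krt18*, 21.2% had *Krt8* alone and 7.90% had *Krt18* alone, and the product of the single shares was 53.6%. In d4 EB, 29.6% (24.7 to 34.8) had both, 48.3% had *Krt8* alone and 6.04% had *Krt18* alone. The product of the single shares was 27.8% there, which lies within the interval of the share with both. The cells with *Krt8* alone were thus the largest class of d4 EB, and those with *Krt18* alone were rare in both.

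By cluster, both transcripts were found together in 100% of the 61 ectoderm-like cells of d2 EB (94.1 to 100) and of the 37 of d4 EB (90.5 to 100). In the mesoderm-like cells they were found together in 61.3% (56.0 to 66.3) at d2 and in 25.9% (20.3 to 32.1) at d4, while *Krt8* alone was found in 26.1% at d2 and 65.6% at d4. In the thinned listed PGCLC, *Krt8* had a UMI in 38.5% (28.4 to 49.2) of the d2 and 13.2% (4.41 to 28.1) of the d4 cells, *Krt18* in 41.8% (31.5 to 52.6) and 26.3% (13.4 to 43.1), and *Krt19* in 7.69% and 2.63%. Free RNA in droplets gives UMIs to cells that do not express a gene, and its part in these shares was not tested. The 37.5% of mesoderm-like d4 cells with *Krt18* at full depth, with a median of 19814 UMIs, stands beside 34.1% of the listed d4 PGCLC, with a median of 24558 UMIs, and the 96.0% with *Krt8* beside 20.5%.

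Cells with *Krt7* almost always had *Krt8* and *Krt18*, and most cells with *Krt19* had *Krt8*. Most thinned cells of d2 and d4 EB had *Krt8* in any case, so the shares with *Krt8* are to be read beside that. In thinned d2 EB, all 31 cells with *Krt7* also had *Krt8* and *Krt18*, and 94.2% of the cells with *Krt19* had *Krt8*. In thinned d4 EB, 96.6% of the cells with *Krt7* had *Krt8* and 93.1% had *Krt18*, and 92.3% of the cells with *Krt19* had *Krt8* but 50.5% had *Krt18*. All 4 members were found together in 37.7% of the ectoderm-like cells of d2 EB and 59.5% of those of d4 EB, and in 1 or 0 cells of each other cluster of these libraries. Over cells, Spearman's rho of thinned *Krt8* and *Krt18* was 0.72 in the 519 cells of d2 EB, 0.38 in the 331 cells of d4 EB, 0.60 in the 361 cells of EpiSC and 0.30 in the 389 cells of d3 EpiLC. These values describe cells that share a library, and the levels of all cell groups enter them.

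**Figure D4:**
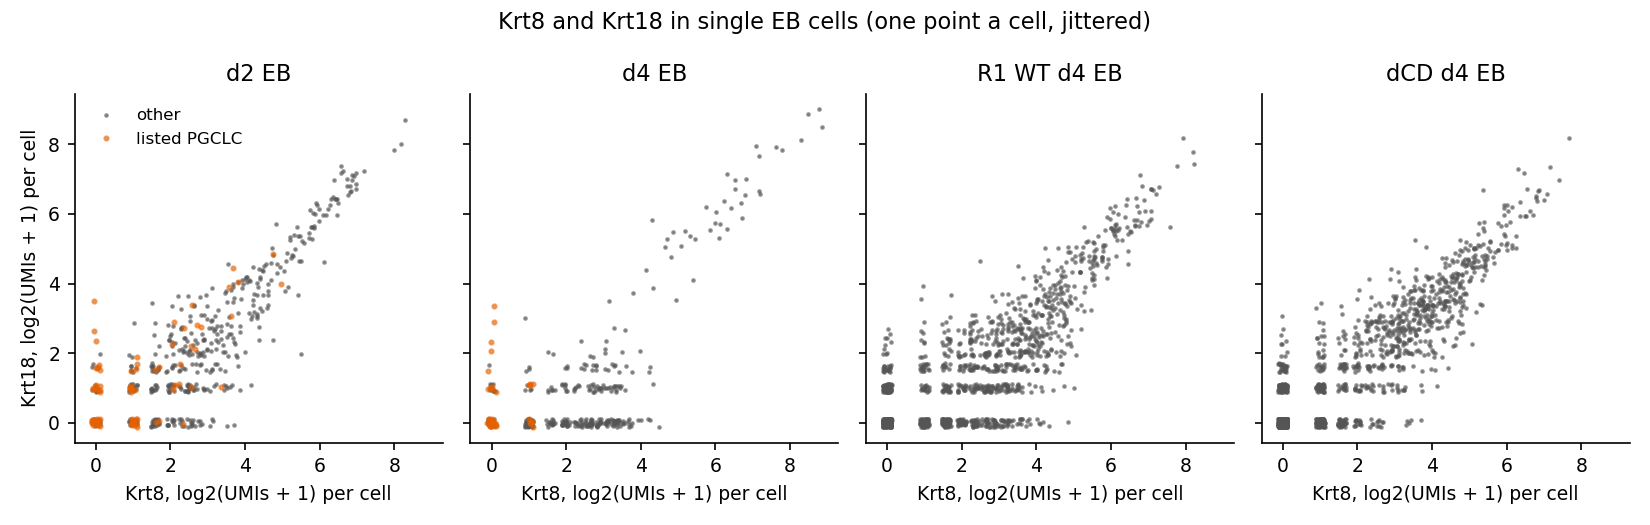
UMIs of *Krt8* and *Krt18* per cell at full depth, as log2 of UMIs plus 1, for every cell of the 4 EB libraries, with a small random shift and listed PGCLC in orange for the E14Tg2a libraries. Cells with many UMIs lie along 1 diagonal, while d4 EB has a row of cells with up to 22 *Krt8* UMIs and few or 0 *Krt18* UMIs.

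In R1 d4 EB the keratins were compared between WT and dCD. *Krt8* was at 766.2 CPM (754.3 to 778.2) in WT and 522.9 CPM (513.5 to 532.3) in dCD, a 1.47-fold lower level (1.431 to 1.501). *Krt19* was at 127.3 CPM (122.5 to 132.3) and 39.7 CPM (37.2 to 42.4), 3.21-fold lower (2.97 to 3.46), and was the 1 member at least 2-fold lower, where 3.68% of 16272 genes were at least 2-fold lower and 6.31% higher. *Krt18* was at 417.2 CPM (408.4 to 426.1) and 391.7 CPM (383.6 to 399.9), a ratio of 0.939 (0.911 to 0.967), and *Krt7* at 10.0 CPM (8.69 to 11.5) and 12.0 CPM (10.6 to 13.5), whose ratio of 1.20 (0.999 to 1.45) includes 1. The balance of the pair was thus 1.84 (1.79 to 1.89) *Krt8* per *Krt18* UMI in WT and 1.33 (1.30 to 1.37) in dCD.

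The share of cells without any keratin UMI also differed. After thinning, 25.3% of WT and 45.8% of dCD cells had none of the 4, *Krt8* had a UMI in 64.1% (61.5 to 66.7) and 46.7% (44.2 to 49.2), and *Krt19* in 32.7% (30.2 to 35.2) and 11.1% (9.59 to 12.8). *Krt8* with *Krt18* was found in 42.8% (40.1 to 45.4) of WT and 37.2% (34.8 to 39.7) of dCD cells, against products of the single shares of 31.4% and 20.2%. Cells with *Krt8* but not *Krt18* made up 21.4% of WT and 9.48% of dCD cells. Spearman's rho of thinned *Krt8* and *Krt18* over cells was 0.68 in WT and 0.82 in dCD.

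The libraries held different cells. Of 10 clusters made without keratin genes, 2 had at least 50 cells of each library. Cluster 4 (453 dCD cells and 2 WT cells, naive pluripotency-like, led by *Fam25c*, *Gm13580*, *Ooep*, *Tcl1* and *Mobp*) held the keratins at 32.9 CPM (28.8 to 37.4) in sum. Without it, the summed keratins were at a dCD to WT ratio of 1.04 (1.02 to 1.06) in place of 0.732 (0.719 to 0.745), *Krt18* at 1.34 (1.30 to 1.38), *Krt8* at 0.971 (0.948 to 0.995) and *Krt19* at 0.445 (0.412 to 0.480). Without the PGC-like clusters 7 and 8 as well, which held 280 WT and 13 dCD cells and had summed keratins at 50.5 and 115.0 CPM, the summed ratio was 0.844 (0.829 to 0.859) and that of *Krt19* 0.359 (0.332 to 0.387). The direction of the sum and of *Krt18* thus depended on which cell groups were kept, and that of *Krt19* did not in these settings.

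The highest keratins of R1 were in cluster 6 (153 WT and 121 dCD cells, with *Vgll3*, *Ccl2* and *Prss23* among its leading genes). It was surface ectoderm or amnion-like with a median marker fold of 2.08, just past the fold of 2 that a name required, and extraembryonic ectoderm markers were at a median fold of 0.879 in it, unlike in the highest clusters of E14Tg2a. It held 4353 CPM of keratins in sum (4300 to 4408), 50.8% of all keratin UMIs of both libraries and 77.5% of those of *Krt7*. Within it, *Krt8* was at 2674 CPM in WT and 2072 CPM in dCD, a ratio of 0.775 (0.748 to 0.802), *Krt18* at 0.951 (0.913 to 0.991), *Krt19* at 0.856 (0.769 to 0.953) and *Krt7* at 1.31 (1.06 to 1.61). Within cluster 1 (555 WT and 111 dCD cells, left unnamed, with endothelium markers at a median fold of 2.97 and extraembryonic mesoderm markers at 2.50, and led by *Ctla2a*, *Cdh5*, *Adamts2*, *Itga4* and *Hapln1*), *Krt19* was at 99.7 CPM (92.5 to 107.2) in WT and 18.4 CPM (12.0 to 27.0) in dCD, a ratio of 0.185 (0.120 to 0.273), with *Krt8* at 0.905 (0.830 to 0.986). *Krt19* was therefore lower in dCD within both shared clusters, and the ratios of the 2 clusters have intervals that do not overlap. At a resolution of 0.5, a cluster of 640 cells (529 WT and 111 dCD) was extraembryonic mesoderm-like, and another of 32 cells was endothelium-like. Which cells of cluster 1 they hold is not given here.

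The extraembryonic mesoderm-like cluster 5 (369 WT cells and 0 dCD cells, led by *Tbx4*, *Pitx1*, *Gal*, *Wnt2* and *Phlda2*) held *Krt8* at 485.6 CPM (466.1 to 505.7), *Krt18* at 114.6 CPM (105.2 to 124.5) and *Krt19* at 156.6 CPM (145.7 to 168.2). Its *Krt8* to *Krt18* ratio of 4.24 (3.86 to 4.66) was the highest of the R1 clusters, as that of the mesoderm-like cluster was in d4 EB of E14Tg2a. The unnamed cluster 3 (455 dCD and 23 WT cells, with *Nkx2-5*, *Six2*, *Bcl11a* and *Npnt* among its leading genes) held *Krt8* at 831.4 CPM (806.9 to 856.5) and *Krt18* at 558.4 CPM (538.3 to 579.1), and both were found together in 79.1% (74.9 to 82.8) of its thinned cells. The endoderm-like cluster 10 (26 WT and 10 dCD cells, led by *S100g*, *Spink1*, *Ttr*, *Rbp4* and *Clic6*) was the second highest at 3224 CPM (3083 to 3369) in sum and had *Krt19* at 403.2 CPM (354.5 to 456.7), the highest of R1. In the 2-cell-like cluster 9, 43 dCD cells, the sum was 60.1 CPM (39.6 to 87.4).

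Of the lists, adhesion and splicing genes were higher in dCD in 7 of 16 cases and lower in 0, at a median log2 ratio of 0.87 against 0.03 over all genes, with *Epcam* at 241.8 CPM in dCD and 92.2 CPM in WT. Of 8 mesenchymal genes, 0 were higher and 5 lower, at a median log2 ratio of -1.58, with *Vim* at 360.7 CPM in dCD and 953.5 CPM in WT. Of 12 desmosome and cytolinker genes, *Pkp3* was higher (10.0 against 1.75 CPM) and *Dsp* (40.1 against 85.9 CPM) and *Pkp2* (19.9 against 50.5 CPM) were lower, and the median log2 ratio was -0.14. Of 15 transcription factors 4 were higher, *Klf5* the most abundant at 135.2 against 63.2 CPM, and *Cdx2* was lower at 4.37 against 27.9 CPM, with a median log2 ratio of 0.53.

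Among 50 other keratin genes, 2 passed 10 CPM in any group, 48 did not, and 15 of these had 0 UMIs in every group. *Krt10*, a type I keratin of stratified epidermis, was at 6.45 to 16.1 CPM in every library, and *Krt42*, a type I keratin gene, was at 44.6 CPM in 2i ESC, 37.7 CPM in S+L ESC and 11.9 CPM in d1 EpiLC and at 0.273 and 0.312 CPM in d2 and d4 EB, the reverse of the course of *Krt8* and *Krt18*. In R1 it was at 9.22 CPM in dCD and 1.94 CPM in WT. *Krt42* was thus the most abundant keratin gene of both ESC libraries.

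Over the cells of the 4 EB libraries, the genes whose level was most like the summed keratins were *Basp1* (mean Pearson's r of 0.60 over the 4 libraries), *Bex3* (0.56), *Ahnak* (0.56), *Anxa2* (0.53) and *Tuba1a* (0.52), out of 7894 genes with a UMI in at least 10% of cells of each library. For *Basp1* the values were 0.61 in d2 EB, 0.70 in d4 EB, 0.55 in R1 WT and 0.55 in dCD. Over the 8 E14Tg2a libraries, *Fhl2*, *Jmjd8*, *Ltbr*, *Limd1* and *Bex2* were most like the summed keratins, with r of 0.99 each on log2(CPM + 1) among 9103 genes, and *Ltbr*, a receptor of the tumour necrosis factor family, stood at 0.343 CPM in the 2i library and at 30.4 CPM in d4 EB. With 8 libraries and that many genes, such values describe a shared course from low in ESC to high in EB and no more.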

How the data were processed

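Transcripts of single cells were tagged at the 3′ end in droplets (10x Genomics), with v2 chemistry in the 8 E14Tg2a libraries and v3 chemistry in the 2 R1 libraries. The authors deposited UMI counts per gene and cell. Those of E14Tg2a were made with Cell Ranger on GRCm38 (mm10) and subsampled to equal mapped reads per cell, and those of R1 hold cells with at least 2000 expressed genes. Cells were assigned to stages by the barcode suffix given in the study's supplement and to PGCLC by its list, of which all 135 cells were found. A total of 0 columns of values were left unused. *Krt8-ps*, a processed pseudogene on chromosome 7 (23357125 to 23358069), has no row in either table, and how reads shared with it were counted is not given in the sources used here.

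CPM, ratios and shares were computed in Python 3.11.15 with scipy 1.17.1. Folds across genes were taken after adding 1 CPM to each level, for genes that had 10 UMIs or more over both groups. EB cells of E14Tg2a were divided by k-means (3 clusters in d2, 4 in d4) with scikit-learn 1.9.0, and R1 cells with Seurat 5.3.0 at a resolution of 0.3, all without keratin genes. A cluster was named from the marker list with the highest median fold, if at least 2 and with 3 markers detected. Cluster 2 of d4 EB met this rule for blood and cluster 1 of R1 met it for endothelium. Both were left unnamed, and the markers of another cell type are given beside them above. Doublets, called with Scrublet in scanpy 1.11.5 in 0.441% to 7.61% of cells, were kept. The precision of each value is limited by 1 library per condition, and depth is given per group above.

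The members, the lists and the clusters to describe were chosen with earlier results of these data known. The genes named are the members, up to 6 genes of each pathway list by level or ratio, other keratins over 10 CPM, the 5 leading genes of clusters with at least 100 UMIs, and the 5 genes most like the summed members over cells and over libraries. Some leading genes of R1 clusters are not reported here. Alternatives changed the scaling, doublets, depth, the highest cells, the cell groups, thresholds and clusters. The computations were tested on simulated counts drawn without variation between cells or libraries, so that test checks the arithmetic only.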

Additional observations from a re-analysis of the deposited data

Results flagged for a closer look

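From d2 to d4 EB, 2 members moved in opposite directions in the main cell groups. *Krt18* was at a d4 to d2 ratio of 1.17 (1.13 to 1.22) in the extraembryonic ectoderm-like cells and of 0.187 (0.161 to 0.217) in the extraembryonic mesoderm-like cells. *Krt8* was at 1.13 (1.08 to 1.17) in the former and at 0.834 (0.782 to 0.889) in the latter. With 1 library per day, the difference between the cell groups was not tested. The cell groups were clustered in each library separately. With 1 more cluster, d2 EB had a primitive streak or nascent mesoderm-like cluster of 158 cells, a name that no d4 EB cluster had. Whether the same kinds of cells were compared at both days was not tested further.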

How the results depend on the processing

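No paired analysis was possible because each condition had 1 library. The d4 to d2 EB ratio of the summed keratins, 1.14, was 1.05 with median-of-ratios size factors and 1.05 without the listed PGCLC, and turned to 0.904 with the mean of per-cell CPM, 0.935 after thinning, 0.889 without the 5 highest cells of each group and 0.561 without the extraembryonic ectoderm-like cluster. That of *Krt8*, 1.07, turned to 0.978, 0.982, 0.920, 0.928, 0.868 and 0.736 in the same order, and that of *Krt7*, 3.16, turned to 0.628 (0.144 to 2.18) without the ectoderm-like cluster, on few UMIs. The PGCLC to other ratio of 0.0923 was 0.102 with size factors, 0.107 per cell, 0.0785 without doublets, 0.115 after thinning, 0.0687 without the highest cells, 0.115 within d2 EB and 0.0343 within d4 EB. The dCD to WT ratio of 0.732 was 0.808 per cell, 0.811 after thinning, 0.804 and 0.849 within clusters 1 and 6, 0.844 without clusters 4, 7 and 8, and turned to 1.04 without cluster 4. That of *Krt18*, 0.939, turned to 1.09 per cell, 1.08 after thinning, 1.34 without cluster 4 and 1.09 without clusters 4, 7 and 8. The share of cells with both *Krt8* and *Krt18* was 72.1%, 37.5%, 52.3% and 41.2% at full depth and 42.4%, 17.2%, 29.3% and 29.7% with at least 2 UMIs, in d2 EB, d4 EB, R1 WT and dCD. The highest cluster of d2 EB held 4546 CPM with 1 more cluster. The settings that leave out named cell groups, or keep to 1 cluster or 1 day, were chosen after seeing the data. Of 100 alternative values of single members in the 3 comparisons, 83 kept their direction and 11 turned. The numbers of members past a 2-fold change in d4 over d2 EB, in listed PGCLC over other EB cells and in dCD over WT were the same with 10 CPM added, with other UMI minimums and at 1.5-fold. The cause of these shifts was not tested, beyond what each setting leaves out.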
